A study of Mus musculus with 4 samples.

Results

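The chaperonins examined here were 9 genes, 7 encoding subunits of the cytosolic CCT ring (Tcp1, Cct2, Cct3, Cct4, Cct5, Cct7 and Cct8) and 2 encoding the mitochondrial pair Hsp60 (Hspd1) and Hsp10 (Hspe1). Every probe set annotated with one of these symbols alone was taken, which gave 24 of the 22690 probe sets in the table. The cells were YAMC, a mouse colon epithelial line that is conditionally immortalised. One group was untreated, and the other spent 16 h in medium in which the probiotic bacterium Lactobacillus GG (LGG) had grown. Each group had 2 arrays, and the titles give 1 array of each group to each of 2 dates, called date 1 and date 2. The labels name no separate cultures, so the p-values measure only the spread between these arrays, which may be technical. Medium that had not been conditioned was not analysed here, so LGG products and the medium itself cannot be told apart.

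Chaperonins are barrel-shaped machines that enclose an unfolded protein and fold it with energy from ATP. CCT, also called TRiC, is built of different but related subunits in stacked rings and is best known for folding actin and tubulin, which reach it partly through prefoldin. Hsp60 does this work in the mitochondrial matrix, where Hsp10 is the lid of its barrel, and both are known as targets of the heat shock response and of the mitochondrial unfolded protein response.

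Of the 24 probe sets, 14 were measured on all 4 arrays with a mean intensity of at least 101, which was the filter for testing. A further 2 were dimmer (1 each of Cct3 and Cct4), and 8 had no value at date 1. Each of the 9 genes had at least 1 probe set tested, and a gene was represented by its brightest one. Over the whole table, 6952 genes were tested, and 452 of them (6.5%) passed limma with date as a block at a Benjamini-Hochberg adjusted p under 0.05, with 3.01% higher and 3.5% lower after LGG medium. The trimmed mean of each array lay between 500.1 and 513.5, so a level is relative to the whole array, and in bulk RNA fewer cells of a type and less RNA per cell cannot be told apart. Among defining markers of the labelled cell type, 5 of 15 epithelial genes (Krt7, Krt8, Krt18, Krt19 and Jup) had a mean of at least 101, while Epcam lay between 6 and 9 and Vil1 between 1.7 and 10.5. The fibroblast markers Col1a1, Col1a2, Col3a1, Dcn and Pdgfra also passed that level (5 of 8). The summed intensity of the 7 fibroblast markers with values on all arrays was 20204 and 17552 without treatment and 14841 and 13316 after LGG medium; that of 13 epithelial markers was 3656 and 4746, and 4328 and 3672. Markers of immune cells (2 of 6 at that level, summed 532 to 753) and endothelial cells (1 of 4, summed 309 to 487) were low, with Ptprc between 15.4 and 37.2. Whether these markers have a part in the chaperonin values was not tested.

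None of the 9 chaperonin genes passed in either direction, although the fitted log2 change (on log2 of intensity plus 25.2, as for all log2 values here) was above 0 for all 9, against 53.8% of all genes tested. It ran from 0.042 for Cct5 to 0.34 for Hspd1. By limma, 2 of the 9 had an unadjusted p under 0.05, Hspd1 (0.0206) and Cct7 (0.0492), which is close to the 20.3% of all genes tested under that value. The lowest adjusted p was 0.15, for Hspd1. The median log2 change of the 9 genes was 0.20, against 0.032 over all genes tested. At date 1 the median ratio was 0.25 against -0.020 over all genes, with all 9 members above 0, and at date 2 it was 0.093 against 0.079, with 6 of 9 above 0. So at date 1 the chaperonin median lay above that of the whole table, and at date 2 these medians were nearly equal. Yet the ratio was larger at date 1 for only 4 of the 9 genes, against 2980 of all 6952. Over the 596 genes at least as bright as the dimmest member, the median ratio was -0.013 at date 1 and 0.025 at date 2. Without LGG replicate 1 (the date 1 array), only 5 of the 9 genes had a change above 0, and the median of the 9 was 0.028, against 0.057 over all genes. That fit had no block for date and set the LGG array of date 2 against untreated arrays of both dates. Since 7 of the 9 genes were lower at date 2 in both groups, its changes also hold part of that difference.

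**Figure D1:**
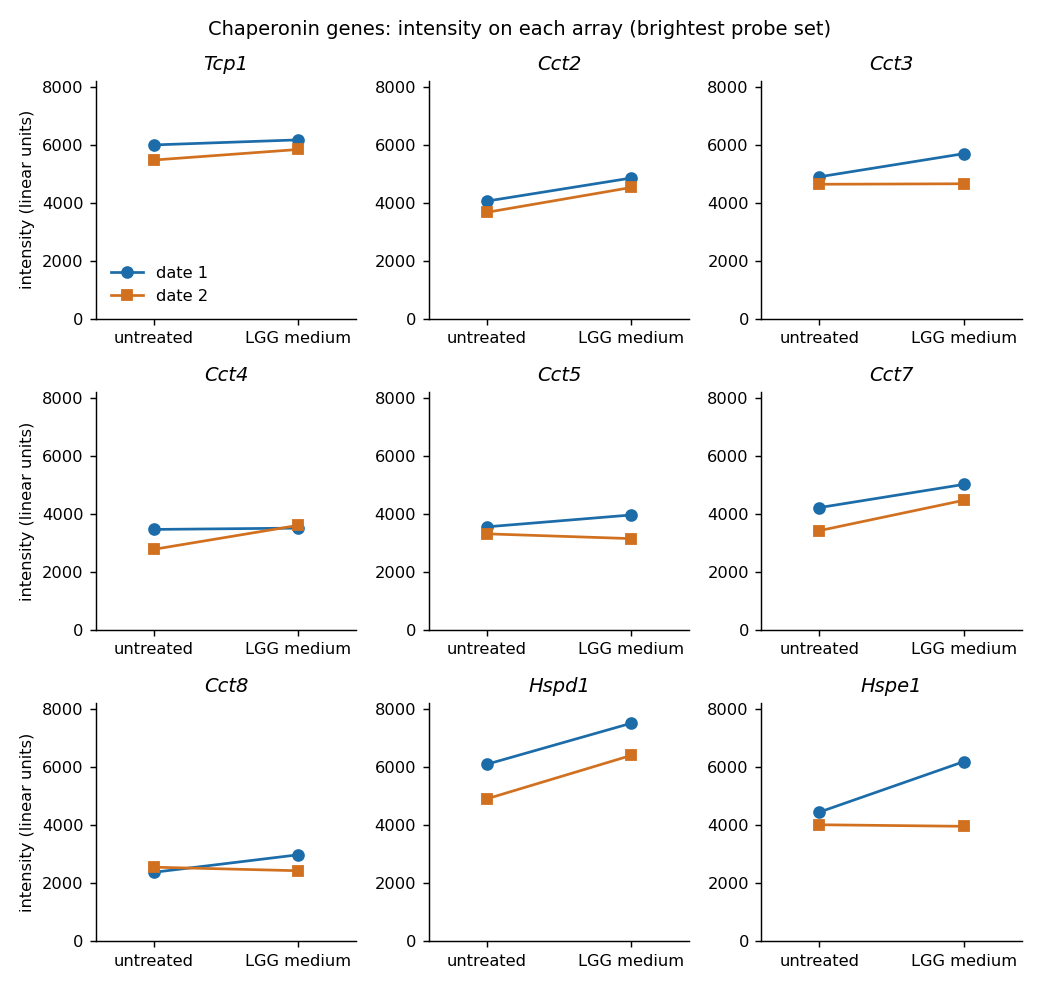
Intensity (linear units, vertical axis from 0) of the probe set that represents each chaperonin gene on the untreated and the LGG medium array of date 1 (circles) and date 2 (squares), with a line joining the arrays of one date. Both lines run upward for Cct2, Cct7 and Hspd1, while for Cct5, Cct8 and Hspe1 the date 2 line is flat or slightly downward.

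The genes for Hsp60 and Hsp10 lie head to head in the mouse genome, and the interval between their starts is shown because it holds the letters of a heat shock element, the site bound by heat shock factors. RefSeq promoter windows (GRCm38.p6, 250 bases before to 50 after a start) were matched by symbol for 8 of the 9 members, 11 windows in all, and Cct4 had no entry. The Hspe1 window and 1 of the 2 Hspd1 windows share 285 bases. The 215 bases between these starts are chr1:55087933-55088147, written on the plus strand, which is that of Hspe1. The other Hspd1 start lies beyond the start of Hspe1. Capitals mark a run of 4 alternating units, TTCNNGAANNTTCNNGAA, which reads the same on both strands.
Hspd1-Hspe1 interval: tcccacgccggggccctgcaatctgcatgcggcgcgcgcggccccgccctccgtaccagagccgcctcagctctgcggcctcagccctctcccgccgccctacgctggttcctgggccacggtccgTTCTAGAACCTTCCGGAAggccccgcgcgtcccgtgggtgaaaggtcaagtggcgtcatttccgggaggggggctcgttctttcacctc

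The run spans positions -89 to -72 from the start of Hspe1 and -144 to -127 from that of Hspd1. Among 32851 windows of this length, 5 (0.0152%) held this run of 4 units, those of Hspd1, Hspe1, Chordc1, Arpc2 and Fam149a, of which the first 3 were tested. Chordc1, which encodes a co-chaperone of Hsp90, had a log2 change of 0.010 (limma, adjusted p = 0.988). The shorter letters GAANNTTC and TTCNNGAA, each its own reverse complement, were in 7.86% and 8.52% of all windows and overlap one another in the run above. Among the CCT genes, GAANNTTC was in 1 window of Cct2 and TTCNNGAA in 1 window of Cct5, both shown with capitals on the match and on the minus strand, the strand of the gene. The match of Cct2 lies at -42 to -35 from its start (chr10:117063394-117063433 is printed), and that of Cct5 at -34 to -27 (chr15:31601857-31601896). CCAAT, in either orientation, was in 4 of the 11 windows (Cct3, Cct7, Tcp1 and Hspd1) and in 37.4% of all windows. A match to these letters is a description and shows no binding.
Cct2: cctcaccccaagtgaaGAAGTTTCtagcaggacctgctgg
Cct5: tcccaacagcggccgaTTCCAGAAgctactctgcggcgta

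Hspd1, whose product forms the mitochondrial barrel, had intensities of 6093 at date 1 and 4900.2 at date 2 in untreated cells, and of 7512.3 and 6403.1 after LGG medium. The same order of dates is kept for every gene that follows. Both treated arrays lay above both untreated ones. The level went from 5497 ± 843 to 6958 ± 784 (SD, n = 2 arrays each). This is a fitted log2 change of 0.34 with an SE of 0.13 (limma, adjusted p = 0.15), or 1.27-fold with a 95% interval of 1.04-fold to 1.54-fold. The log2 ratio was 0.30 at date 1 and 0.38 at date 2, so the dates were close to each other. In the main fit Hspd1 had the largest fitted change of the 9 genes, higher than or equal to that of 81.5% of all genes tested, and it did not pass. With 1 array left out its change lay between 0.19 and 0.50. The largest change was that of Cct7 under quantile normalization (0.34, against 0.33 for Hspd1) and without LGG replicate 1 (0.23), of Cct2 without untreated replicate 2 (0.21) and of Hspe1 without LGG replicate 2 (0.55).

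Hspe1, the lid of that barrel, was represented by a probe set at 4444.4 and 4008.9 in untreated cells and 6189.8 and 3955.1 after LGG medium. Only the treated array of date 1 stood apart, and the groups overlapped. The log2 change was 0.23 ± 0.16 (SE here and in what follows; limma, adjusted p = 0.459), with ratios of 0.48 at date 1 and -0.019 at date 2. Its second probe set, 1422579_at, measured 1080.2 and 810.6 untreated and 1250.6 and 931 treated. Here the ratios were even, 0.21 and 0.19, with a fitted change of 0.20 (adjusted p = 0.646). The probe sets of Hspe1 differed in sign at date 2, and the brighter one carries the suffix _s_at, which marks probes that can match more than 1 transcript. Of all genes tested, 925 lay closer to Hspd1 than Hspe1 did, by the distance between log2 values over the 4 arrays after each gene's mean was subtracted. By the probe sets that represent them, Hspd1 and Hspe1, which share the interval printed above, were not each other's nearest genes on these arrays. The distance of Hspe1 depends on that choice. Its second probe set was not ranked, and its ratios lay nearer to those of Hspd1 at both dates.

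Among the CCT subunits, Cct7 and Cct2 had the largest fitted changes with all arrays. Cct7, the eta subunit, measured 4216 and 3421 untreated and 5018.3 and 4471.2 treated. Its groups did not overlap, and its log2 change was 0.32 ± 0.15 (limma, adjusted p = 0.242), with ratios of 0.25 at date 1 and 0.38 at date 2. The 95% interval of this change ran from 1.00-fold to 1.55-fold. Its second probe set, 1415817_s_at, measured 2495.7 and 2205.3 untreated and 2638.6 and 2363.2 treated, a smaller change of 0.089 ± 0.17 (adjusted p = 0.826) in the same direction.

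Cct2, the beta subunit, measured 4054.4 and 3667.5 untreated and 4853.1 and 4527.2 treated. Both treated arrays again lay above both untreated ones, with a log2 change of 0.28 ± 0.15 (limma, adjusted p = 0.304) and ratios of 0.26 and 0.30. Without values at date 1, 2 more probe sets of Cct2 could be read only at date 2. One, 1433535_x_at, went from 5693.1 to 6164.1 and the other, 1433534_a_at, from 1440.3 to 1354, so they differed in direction.

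Cct4, the delta subunit, measured 3463.1 and 2776.6 untreated and 3508.5 and 3605.7 treated. The groups did not overlap, but the gap between the highest untreated and the lowest treated array was small, and the ratios were 0.019 at date 1 and 0.37 at date 2. The log2 change was 0.20 ± 0.16 (limma, adjusted p = 0.551). The 4 other probe sets of Cct4 with values at date 2 alone had log2 ratios of -0.14, 0.024, -0.033 and -0.28, all below the 0.37 of the representing probe set at that date. The remaining one lay between 3.6 and 6.2 on all arrays and was too dim to read.

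Tcp1, the alpha subunit that gave the complex its older name, had the most even values. It measured 5994.7 and 5473.6 untreated and 6169.9 and 5839 treated, a log2 change of 0.067 ± 0.13 (limma, adjusted p = 0.833), and its groups overlapped. The 95% interval ran from 0.86-fold to 1.28-fold.

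Cct3, the gamma subunit, was measured by 4 probe sets that could be tested. The brightest read 4894.8 and 4637.7 untreated and 5695.1 and 4654.8 treated, a log2 change of 0.11 ± 0.14 (limma, adjusted p = 0.722) with overlapping groups. Another, 1416024_x_at, had a change of 0.15 with ratios of 0.091 and 0.20, and the dimmest, 1426067_x_at, a change of -0.071. Probe set 1459987_s_at swung most of all 14, from 2258.8 to 3607.9 at date 1 and from 2941.1 to 2287 at date 2, which are log2 ratios of 0.67 and -0.36. None of the 4 passed. The log2 ratio of the brightest also fell, from 0.22 at date 1 to 0.0053 at date 2, but did not change sign. Those of 1416024_x_at and 1426067_x_at (-0.22 and 0.079) went the other way. One more probe set, 1449645_s_at, was read at date 2 alone and had a log2 ratio of 0.037.

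Cct5, the epsilon subunit, measured 3551.7 and 3311.3 untreated and 3961.8 and 3146.3 treated. Cct8, the theta subunit, measured 2367.8 and 2544.6 untreated and 2973.4 and 2421.5 treated. Both had overlapping groups, with the treated array of date 1 highest and that of date 2 lower than either untreated array for Cct5 and lower than the untreated array of its own date for Cct8. The log2 changes were 0.042 ± 0.16 for Cct5 (limma, adjusted p = 0.921) and 0.13 ± 0.18 for Cct8 (adjusted p = 0.748). The ratio at date 1 was 0.16 for Cct5 and 0.33 for Cct8, and at date 2 it was -0.073 for Cct5 and -0.071 for Cct8. The second probe set of Cct8, read at date 2 alone, was dim, at 3.1 and 21.3.

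**Figure D2:**
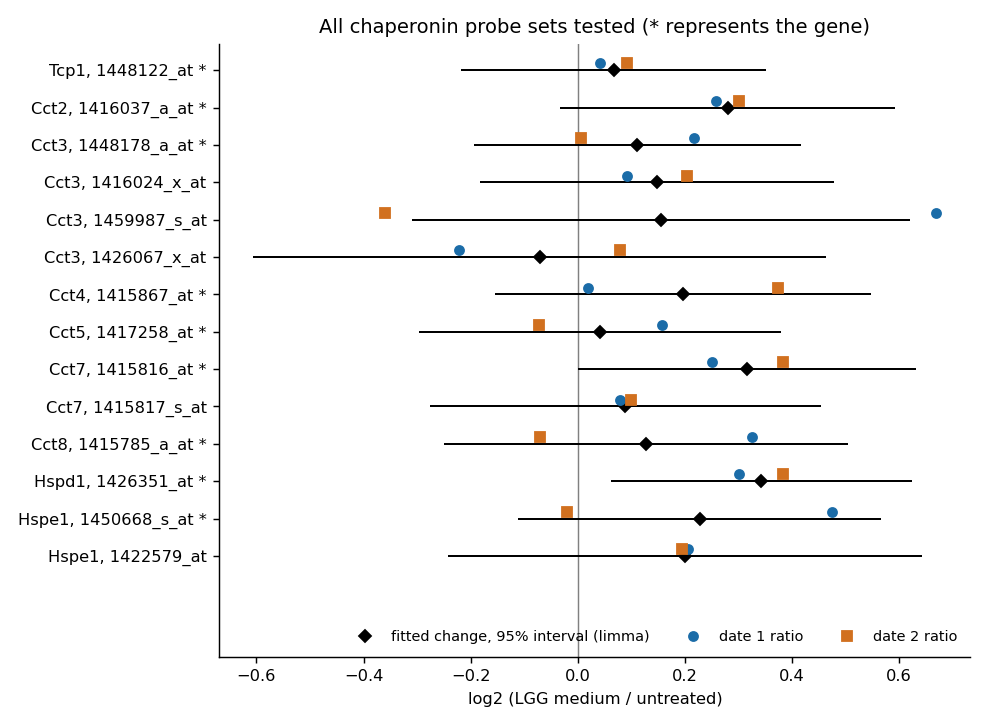
Log2 of LGG medium over untreated for the 14 chaperonin probe sets tested: the limma change (diamond) with its 95% interval (line), and the ratio at date 1 (circle) and date 2 (square). An asterisk marks the probe set that represents a gene. The interval of 12 probe sets includes 0, and those of Hspd1 and the brighter Cct7 probe set do not, before adjustment over the table.

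Over the 9 genes, 6 were higher with LGG medium at both dates (Tcp1, Cct2, Cct3, Cct4, Cct7 and Hspd1), against 35.1% of all genes tested and 32.6% of the 596 genes at least as bright as the dimmest member, and 0 were lower at both, against 30.2%. Among these 6, the ratio was close to 0 for Cct3 at date 2 (0.0053), Cct4 at date 1 (0.019) and Tcp1 at date 1 (0.041). Of the same 6, Cct2, Cct4, Cct7 and Hspd1 had groups that did not overlap (4 of 9), a pattern found in 26.2% of all genes tested. None had both treated arrays below both untreated ones, against 22.3%. Over the 14 probe sets, 9 were higher at both dates, against 32.3% of all probe sets tested, 0 were lower at both, against 31.8%, and none passed, against 6.55% of all (2.69% higher and 3.86% lower). The 8 probe sets read at date 2 alone were 4 higher and 4 lower, or 3 higher and 4 lower among the 7 with a mean of at least 101. The members belong to 1 complex or 1 pair and share the same 4 arrays, so they are not independent of each other.

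The treated array of date 1 was the highest of the 4 for 8 of the 9 genes, Cct4 being the exception. This held for 22.1% of all genes tested and for 167 of the 596 bright genes. It is not separate from the ratios above 0 at date 1 and the lower levels at date 2 given below. Controls of RNA integrity also moved with the treated array of date 1. For Gapdh, the 3' signal divided by the 5' signal was 0.805 untreated and 0.931 treated at date 1, and 0.784 and 0.768 at date 2. For Actb it was 1.11 and 1.20 at date 1, and 1.08 and 1.05 at date 2. Whether this has a part in the chaperonin ratios of date 1 was not tested. The difference of an effect between the dates could not be tested either, since each date held 1 array per group.

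The date itself went with the level of these genes in both groups. At date 2, 7 of the 9 were lower than at date 1 in the untreated and in the treated cells, against 28.7% of all genes tested and 42.4% of the 596 bright genes. None was higher in both, against 28.9%, and the exceptions were Cct4 and Cct8. The fitted log2 difference of date 2 from date 1 had a median of -0.18 over the 9 genes, against 0.0070 over all genes and -0.075 over those 596. It was largest for Hspe1 (-0.40, limma adjusted p = 0.369) and Hspd1 (-0.27, adjusted p = 0.465), and none of the 9 passed, against 0.388% of all genes (0.216% higher and 0.173% lower).

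**Figure D3:**
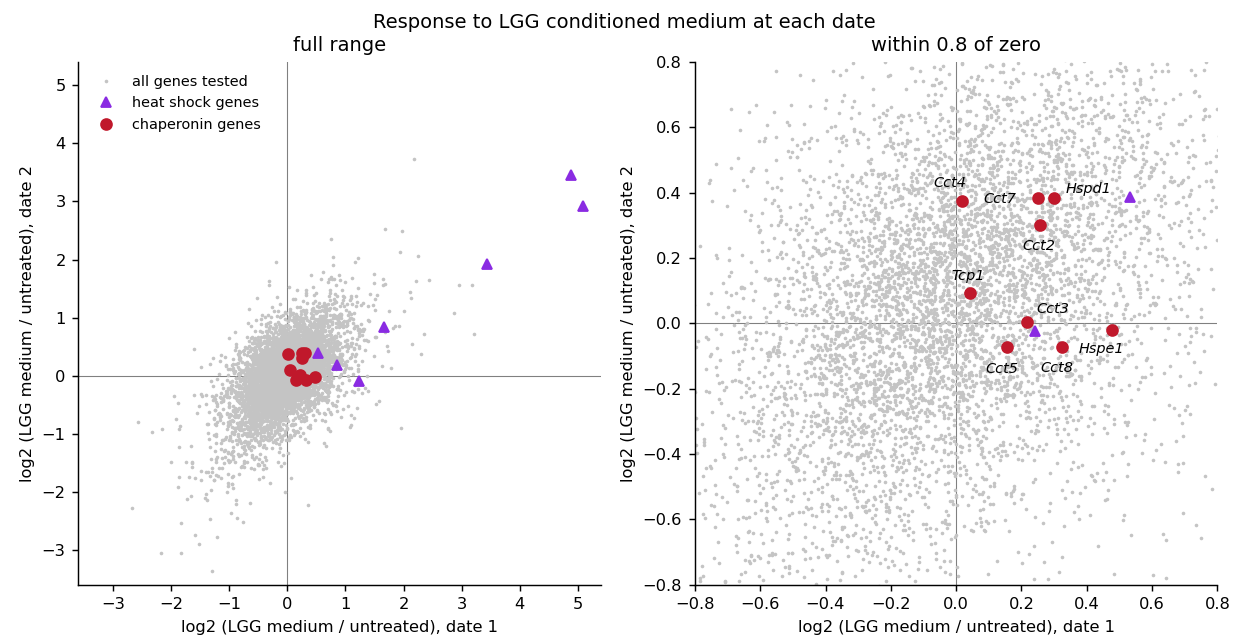
Log2 ratio of LGG medium over untreated at date 1 (horizontal) and date 2 (vertical) for all 6952 genes tested (grey), the 9 chaperonin genes (red circles) and 8 heat shock genes (purple triangles), over the full range on the left and within 0.8 of zero on the right. The chaperonin genes lie inside the main cloud, to the right of zero at date 1, while Hspa1a, Hspa1b and Hspb1 lie far outside it.

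The genes nearest to Hspd1 over the 4 arrays, members left out, were Dll1, Sod1 and Plk2, at distances of 0.0430, 0.0505 and 0.0585 on the log2 scale. Cct7 lay at 0.0529 from Hspd1, with rank 3 among all genes tested, and Cct2 at 0.163, with rank 111. The genes nearest to the mean profile of the 7 CCT genes were Ppme1, Sim1 and Synj2bp, at 0.0213, 0.0224 and 0.0238. None of these 6 genes outside the chaperonins passed. With small changes on 4 arrays many genes lie close together, and nearness here is a description alone.

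Other genes of the same pathways were read from fixed lists. Of the CCT family outside the 9, Cct6a, the zeta subunit of the same ring, measured 8089.4 and 5942.8 untreated and 7700.6 and 5901.7 treated, a log2 change of -0.040 ± 0.13 (limma, adjusted p = 0.901). Its ratios were -0.071 and -0.010, so it was the one CCT ring gene tested with a fitted change below 0. Mkks, a chaperonin-like gene, stood at -0.24 (adjusted p = 0.634). Of 9 CCT cofactors tested (prefoldin subunits, phosducin-like proteins and partners), 0 rose and 0 fell, with a median of 0.058. Over all genes tested, 3.01% rose and 3.5% fell, so a count of 0 in a list this short is near those shares. The values furthest from 0 with one sign at both dates were -0.46 for Txndc9, 0.41 for the prefoldin subunit gene Pfdn2 and 0.37 for Vbp1, also a prefoldin subunit.

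Among 16 clients of CCT tested, 1 rose and 0 fell, against 3.01% and 3.5% of all genes tested, with a median of 0.13. The one was Tuba4a, an alpha tubulin, which measured 600.6 and 795.1 untreated and 2507.4 and 1744.7 treated. Its log2 change was 1.56 ± 0.23 (limma, adjusted p = 0.00169), and both treated arrays lay far above both untreated ones. With 1 array left out its log2 change lay between 1.30 and 1.82. Its call was lost with no filter on dim probe sets (limma, adjusted p = 0.0970), and also without untreated replicate 1 or untreated replicate 2. The beta tubulin genes Tubb2a (0.65) and Tubb4b (-0.41) and the actin gene Actb (0.43) did not pass, and Actg1, the other cytoplasmic actin, had a change of 0.10. Of 5 tubulin cofactors, which assemble the tubulin dimer after CCT releases its chains, 0 rose and 0 fell (median -0.010), near the same shares. Those furthest from 0 were Tbcc (-0.50), Tbcd (-0.47) and Tbca (0.21).

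The mitochondrial chaperones and proteases had a median log2 change of 0.46 (0.35 at the first date and 0.46 at the second), and 8 of 12 had a change above 0, against 53.8% of all genes tested. Of these 12, 1 rose and 0 fell, against 3.01% and 3.5% of all genes tested. Afg3l2, a protease of the inner membrane, measured 401.3 and 569 untreated and 812.6 and 962.6 treated, a log2 change of 0.85 ± 0.22 (limma, adjusted p = 0.0367). Its call was lost when the block for date was dropped (limma, adjusted p = 0.147) and with scaling to a common median (0.0596). The same held without an intensity trend (0.0676), with no filter on dim probe sets (0.154) and with any 1 array left out. Yme1l1 (0.64), Pam16 (0.63) and Dnaja3 (0.63) did not pass. Hspa9, the mitochondrial Hsp70 that hands proteins to Hsp60, was picked after its values were seen. It measured 2285.4 and 2535.6 untreated and 3845.3 and 3094.4 treated, with a log2 change of 0.51 ± 0.17 (adjusted p = 0.103).

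Of 8 targets of heat shock factors tested in the same cells, 4 rose (Hspa1b, Hspa1a, Hspb1 and Hsph1) and 0 fell, against 3.01% and 3.5% of all genes tested. Hspa1a measured 27.5 and 29.3 untreated, below the filter for testing, and 1768.7 and 390 treated. Its mean met the filter only through the treated arrays, so its entry into the test was tied to its rise. Its place among the 4 is therefore not independent of the filter. The median log2 change of the 8 was 0.91 (1.45 at the first date and 0.61 at the second). Hsph1, an Hsp110 chaperone and the smallest of the 4, had a change of 1.25, with ratios of 1.66 and 0.84. Hsph1 did not pass when the block for date was dropped or without LGG replicate 1, and the other 3 passed in both. With no filter, or without untreated replicate 1 or untreated replicate 2, limma called 0 genes in the whole table, and so none here. The highest upper end of a 95% interval among the chaperonin genes was 0.63, for Cct7. The 4 heat shock genes that did not pass were Dnajb1 (0.57), Bag3 (0.51), Hsp90aa1 (0.46) and Hspa8 (0.11). The change of Hspa8 lies below those of Hspd1 (0.34) and Hspe1 (0.23), and the others lie above both. The ratios of Dnajb1 were 1.24 at date 1 and -0.099 at date 2.

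**Figure D4:**
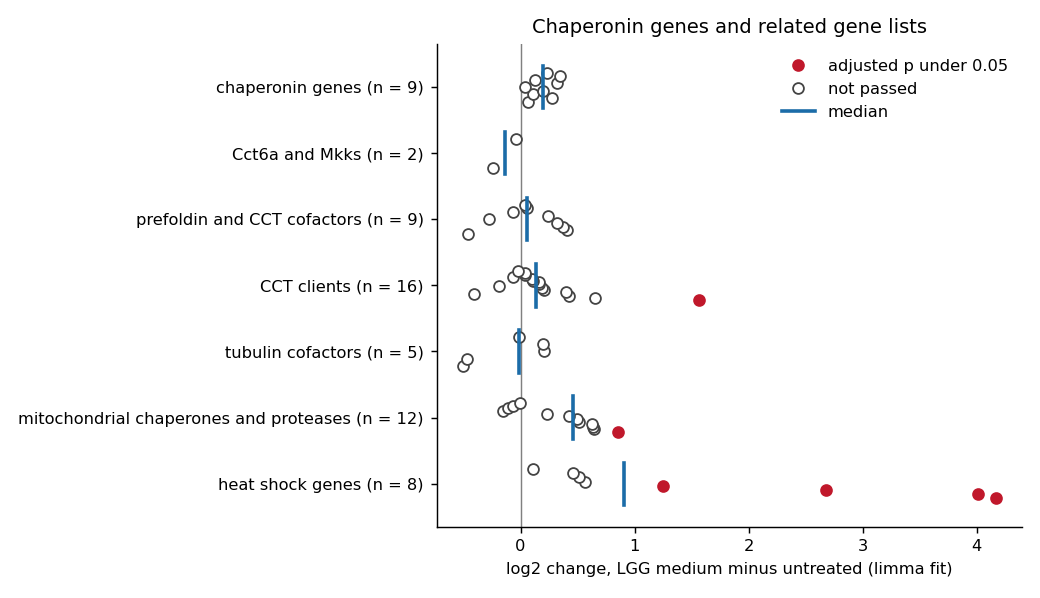
Fitted log2 change (LGG medium minus untreated, horizontal axis) of each gene tested among the chaperonins and the related lists, with a vertical bar at the median of each list; filled points passed limma at an adjusted p under 0.05. The chaperonin genes lie between 0.042 and 0.34, and the passing points are Tuba4a, Afg3l2 and 4 heat shock genes.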

How the data were processed

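Total RNA from 4 samples was profiled on mouse 430A arrays, 2 per group. The authors' deposited table holds a linear intensity for each probe set; software and scaling are not given in the sources used here. Groups come from the titles. The shared dates in the titles pair the arrays, and the date differences of the untreated and treated cells correlated at 0.27 over probe sets.

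No further scaling was applied. The geometric mean of the arrays' trimmed means (2% off each end) was 504.9, and 5% of it was the pseudocount. The 64 control probe sets and 6307 probe sets without date 1 values were left out of the fit, and the filter was a mean of at least 20% of that geometric mean. Symbols came from the platform annotation (20393 probe sets with 1 symbol, 691 with several, 1606 with none). limma 3.58.1 (R 4.3.3) was fitted to all 10333 remaining probe sets with group and date and an intensity trend. A run on simulated data planted larger changes than those fitted for the chaperonin genes, so it does not bear on changes of their size. The fit to the arrays had 1 residual and 12.5 prior degrees of freedom, so SEs, intervals and p-values rest mostly on variance shared across genes. All tests were two-sided. The number of arrays limits the precision. The text names every member; of each list, genes that passed and up to 3 with the largest change of one sign at both dates; and the 3 nearest genes. Actg1, Mkks, Hspa9, Chordc1 and the heat shock genes that did not pass were named after their values were seen. Members and lists were chosen with earlier results of these data known. Figures used matplotlib 3.10.9. Alternatives changed the block, pseudocount, filter, scaling, trend, probe set summary or arrays.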

Additional observations from a re-analysis of the deposited data

Results flagged for a closer look

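For 3 chaperonin genes the ratio of treated to untreated cells had opposite signs at the dates. The log2 ratios at dates 1 and 2 were 0.48 and -0.019 for Hspe1, 0.33 and -0.071 for Cct8, and 0.16 and -0.073 for Cct5. The difference between the dates was not tested, since each date holds 1 array per group. Among all genes tested, 2410 of 6952 had opposite signs at the dates.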

How the results depend on the processing

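The count of chaperonin genes and probe sets that passed was 0 in both directions under each alternative run. With all arrays, the 9 genes kept a fitted change above 0 in each fit, with a median between 0.19 and 0.21 and a lowest adjusted p between 0.0732 (Hspd1, mean of all tested probe sets of a gene) and 0.424 (Hspd1, no intensity trend). With 1 array left out, in fits without the block, the log2 change ranged from -0.033 to 0.26 for Cct3, -0.12 to 0.21 for Cct5, -0.019 to 0.27 for Cct8 and -0.093 to 0.55 for Hspe1; the change of sign came without LGG replicate 1 and, for Cct5, also without untreated replicate 2 (-0.0085). The others kept their sign, from 0.19 to 0.50 for Hspd1, 0.17 to 0.47 for Cct7, 0.21 to 0.35 for Cct2, 0.038 to 0.35 for Cct4 and 0.0018 to 0.13 for Tcp1. The lone array of a group was then assumed to vary like the other group. It was also set against arrays of both dates, so these changes also hold part of the difference between the dates. Over all genes, 948 were called in either direction with the mean of all tested probe sets of a gene, against 452 in the main fit. By direction, 24 were called higher and 37 lower without the replicate block, and 115 and 129 without an intensity trend. The counts were 0 and 0 with no filter (1525 at an unadjusted p under 0.05), and 152 were called lower with scaling to a common median. With 1 array left out these counts ranged from 0 to 198 higher and 0 to 230 lower. In the related lists, 6 genes rose, against 0 with no filter and 0 to 6 with 1 array left out; 0 came without untreated replicate 1 and without untreated replicate 2, where 0 genes of the whole table were called (485 and 533 at an unadjusted p under 0.05). No chaperonin gene was called with or without the block, and without it 61 of all 6952 genes were called. The cause of these shifts was not tested. Detection calls were not used here, so no bound against background can be given for dim probe sets.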
